A study of Mus musculus with 203 samples.

Results

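The interferon regulatory factors (IRFs) were followed in RAW264.7 cells (hereafter RAW cells), a mouse macrophage line, as the rows of the deposited RNA-seq table whose gene symbol is Irf1, Irf2, Irf3, Irf4, Irf5, Irf7, Irf8 or Irf9. These are 8 of the 25094 rows of the RAW table and 8 of the 16478 rows of a second table on bone marrow-derived macrophages, whose remaining columns hold the submitters' own comparisons and were not analysed. In RAW cells these 8 genes passed the filter on low values (1 or more on the log2 scale in 4 or more of the libraries), as did 12905 genes in all.

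Each IRF carries a DNA-binding domain that recognises GAAA repeats, and the resulting interferon-stimulated response element (ISRE) gives interferon-induced genes their common control. IRF3, IRF5 and IRF7 are latent factors that are phosphorylated downstream of Toll-like receptors and cytosolic nucleic acid sensors and switch on interferon genes, whereas IRF9 is the DNA-binding part of the ISGF3 complex that answers interferon. IRF4 and IRF8 bind DNA poorly alone and work with PU.1, the ETS factor of macrophages, and IRF4 is known for its part in the response to interleukin 4 (IL4).

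The 16 RAW libraries formed 4 groups of 4. Cells carried a lentiviral hairpin against GFP (shGFP, the control) or against Kdm1a (shKDM1A), which encodes the lysine demethylase KDM1A, and were either left as control or given IL4 at 20 ng/ml for 6 h. All groups therefore carry a lentiviral hairpin, and since 1 hairpin sequence is given for Kdm1a, the loss of Kdm1a cannot be told apart from other properties of that hairpin or of the transduced cells. The labels give the strain of the cells as BALB/c. Values are log2 levels per library, set by the submitters across the 16 libraries, and differences between groups are differences of these log2 values.

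Libraries held between 17554721 and 27782568 tags, and the median gene differed by 0.036 to 0.056 between libraries of a group. Kdm1a stood at 11.13 to 11.23 in the shGFP control libraries and at 10.23 to 10.36 in the shKDM1A control libraries. The log2 difference was -0.88 (SE 0.0282) without IL4 and -0.79 with IL4, so the hairpin labels held in every library. Kdm1a does not check the IL4 labels. The macrophage label was checked against markers. Of the macrophage markers 9 of 9 passed the filter, among them Cd68 at 13.6 to 13.8 and Csf1r at 15.0 to 15.5. For T cells 1 of 5 passed (Lck, at 5.71 to 5.92) and for neutrophils 1 of 5 (S100a8, at 1.21 to 1.26). The counts were 0 of 5 for B cells, 0 of 5 for fibroblasts and 0 of 4 for epithelial cells. The summed macrophage marker level was 17.65 to 17.70 in shGFP control and 17.32 to 17.34 in shGFP IL4 libraries. It was 17.84 to 17.87 in shKDM1A control and 17.74 to 17.84 in shKDM1A IL4 libraries, so it too moved with the groups. The sum was taken before the log, and Lyz2 had the highest level in it, at 16.35 to 17.18. Single markers moved both ways, from -0.93 to 1.32 after IL4 in shGFP cells and from -0.45 to 0.90 in shKDM1A cells. With the hairpin they ranged from -0.11 to 0.41 without IL4 and from -0.83 to 0.68 with it. The part of these markers in the results was not tested. In bulk RNA, fewer cells that express a gene and less of its RNA per cell cannot be told apart.

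The genes lie apart in the genome, with Irf3 and Irf7 on chromosome 7 and Irf2 and Irf8 on chromosome 8 as the only members that share one. In mm9 coordinates Irf7 spans chr7:148449082-148452323 on the minus strand. On the plus strand Irf3 spans chr7:52253018-52258218, Irf5 chr6:29476625-29487320 and Irf9 chr14:56222822-56228867. Irf1 spans chr11:53583516-53590826 and Irf2 chr8:47825099-47932812, and the PU.1 partners Irf4 and Irf8 span chr13:30841102-30858850 and chr8:123260258-123280592, also on the plus strand. No other row of the table overlapped a member's row, which bears on the values because tags on both strands had been counted. Irf3 was counted over NR_045611, a non-coding transcript of the gene, and the other members over protein-coding transcripts.

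**Figure D1:**
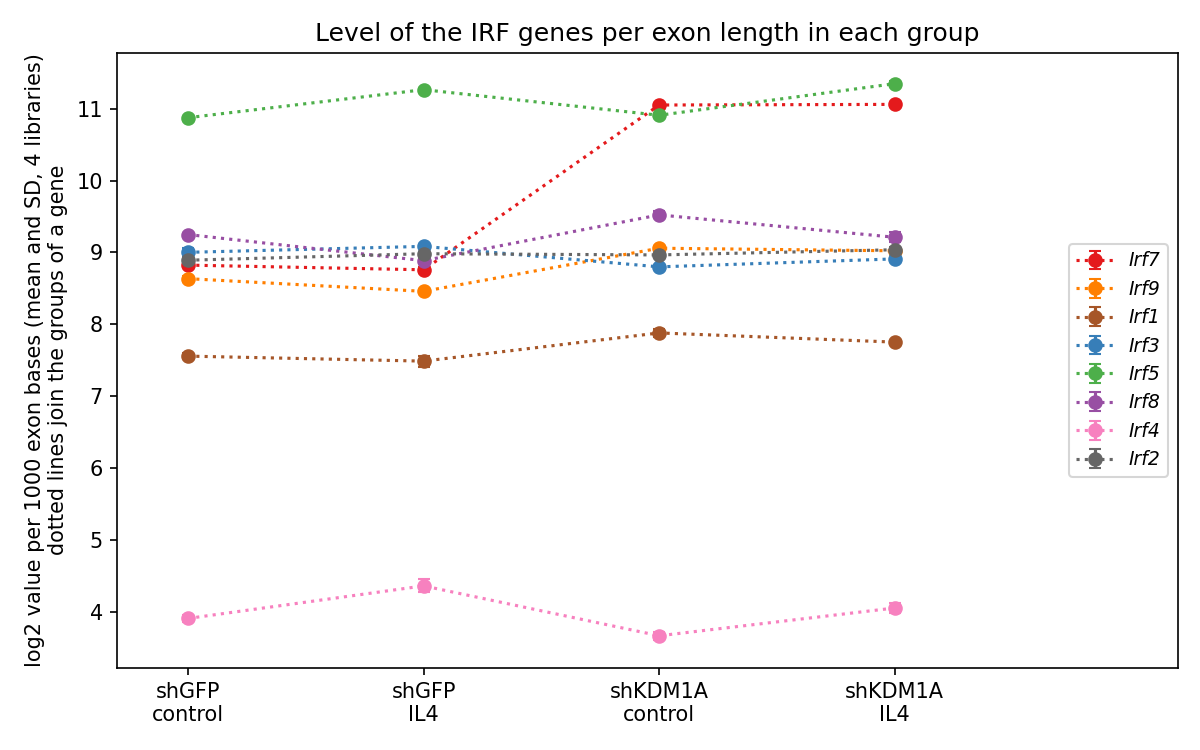
Mean log2 value per 1000 exon bases (y axis; error bars are SD over 4 libraries, often smaller than the dot) of the 8 IRF genes in the 4 groups of RAW libraries (x axis); dotted lines join the groups of a gene. Irf5 is at the top and Irf4 at the bottom of the shGFP groups, and Irf7 moves from 8.82 in shGFP control to 11.05 in shKDM1A control libraries.

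Levels were compared between genes per exon length, on the log2 scale per 1000 exon bases. In shGFP control cells the order was Irf5 (10.88 ± 0.0075, SD, n = 4), Irf8 (9.25 ± 0.0279), Irf3 (9.00 ± 0.061), Irf2 (8.89 ± 0.0402), Irf7 (8.82 ± 0.0293), Irf9 (8.63 ± 0.0397), Irf1 (7.56 ± 0.0368) and Irf4 (3.90 ± 0.0525). The libraries of Irf3 and Irf2, and those of Irf2 and Irf7, overlapped, and all other neighbours in this order were apart in every library. Irf5, an activator of inflammatory cytokine genes in macrophages, was above 92.8% of all tested genes, and Irf4 was above 16.3%. With IL4 the order in shGFP cells became Irf5, Irf3, Irf2, Irf8, Irf7, Irf9, Irf1 and Irf4, with no overlap between neighbours.

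In shKDM1A cells the order differed in 1 large way. Irf7, the fifth of the 8 in both shGFP groups, was first in shKDM1A control cells at 11.05 ± 0.0272, above Irf5 at 10.91 ± 0.0331, and second to Irf5 in shKDM1A IL4 cells, at 11.06 ± 0.033 against 11.35 ± 0.0378. Irf7 was thus above 70.2% of tested genes in shGFP control cells and above 93.6% in shKDM1A control cells. Irf9 moved from place 6 to place 4 in control cells, and Irf4 remained last in all 4 groups, between 3.66 and 4.36.

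To set the members beside their known control elements, the 250 bases before the start of each row were read from NCBIM37 (mm9), the build of the table. The windows of Irf7, which differed most between the hairpins, of Irf1 and Irf8, which hold GAS matches, and of Irf2, which holds an ISRE match, are shown 5′ to 3′ on the strand of the gene, with matches in capitals. Irf7 is chr7:148452324-148452573 on the minus strand. Irf1 is chr11:53583266-53583515, Irf8 is chr8:123260008-123260257 and Irf2 is chr8:47824849-47825098, all on the plus strand.
Irf7: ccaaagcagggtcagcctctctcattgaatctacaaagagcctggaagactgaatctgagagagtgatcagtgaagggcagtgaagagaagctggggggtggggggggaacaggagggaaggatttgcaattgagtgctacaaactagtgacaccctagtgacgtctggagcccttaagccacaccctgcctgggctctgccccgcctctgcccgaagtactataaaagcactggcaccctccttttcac
Irf1: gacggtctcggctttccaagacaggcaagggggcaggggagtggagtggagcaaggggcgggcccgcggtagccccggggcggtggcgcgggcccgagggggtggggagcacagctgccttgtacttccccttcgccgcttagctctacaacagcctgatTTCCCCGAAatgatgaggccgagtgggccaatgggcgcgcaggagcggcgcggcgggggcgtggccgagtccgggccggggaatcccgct
Irf8: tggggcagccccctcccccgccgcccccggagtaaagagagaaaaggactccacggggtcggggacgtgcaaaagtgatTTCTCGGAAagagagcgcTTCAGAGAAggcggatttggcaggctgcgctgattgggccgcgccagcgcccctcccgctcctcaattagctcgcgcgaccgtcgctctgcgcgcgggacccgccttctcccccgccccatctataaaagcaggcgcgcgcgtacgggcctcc
Irf2: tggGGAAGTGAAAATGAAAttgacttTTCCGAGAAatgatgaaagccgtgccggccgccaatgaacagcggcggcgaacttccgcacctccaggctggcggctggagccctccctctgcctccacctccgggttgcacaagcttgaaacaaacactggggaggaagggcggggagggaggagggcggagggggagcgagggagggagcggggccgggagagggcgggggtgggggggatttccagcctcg

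Both strands were searched for 4 patterns. The gamma-activated site (GAS) bound by STAT dimers, TTCNNNGAA, was present in 3 of the 8 IRF windows and in 6.78% of the 25015 windows of the table. It lay at base -90 relative to the start in Irf1 (TTCCCCGAA), at -171 (TTCTCGGAA) and -153 (TTCAGAGAA) in Irf8 and at -224 (TTCCGAGAA) in Irf2. The ISRE core GAAANNGAAA was found in 1 member, Irf2, at -241 (GAAAATGAAA), against 3.13% of all windows. The ETS-IRF composite GGAANNGAAA was found only in Irf2 among the 8 windows, at -247 (GGAAGTGAAA), against 2.32%, and overlaps the ISRE match by 4 bases. The wider STAT6 spacing TTCNNNNGAA was in none of the 8 windows and in 5.54% of all. The Irf7 window held none of these letters, which says nothing on whether a factor binds there or further away. All windows end at the base before the start, so a match across the start could not be found. These matches describe sequence and are not shown to be sites in these cells.

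The first question was which IRF genes differed with the Kdm1a hairpin in cells without IL4. Irf7, the amplifier of the type I interferon response, was 4.69-fold higher in shKDM1A cells, and Irf9, Irf1 and Irf8 were also higher, whereas Irf4 and Irf3 were lower. At an adjusted p under 0.05 (limma, Benjamini-Hochberg over 12905 genes), 7 of 8 members were called, 5 higher and 2 lower, where 38.2% of all tested genes were called (19.7% higher and 18.4% lower). The same 7 had no overlap between the libraries of the 2 groups, as did 37.4% of all genes. The median log2 difference was 0.17 over the members and -0.0027 over all genes. With an absolute difference over 0.5 also required, Irf7 was the 1 member left, where 2.61% of all genes were.

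**Figure D2:**
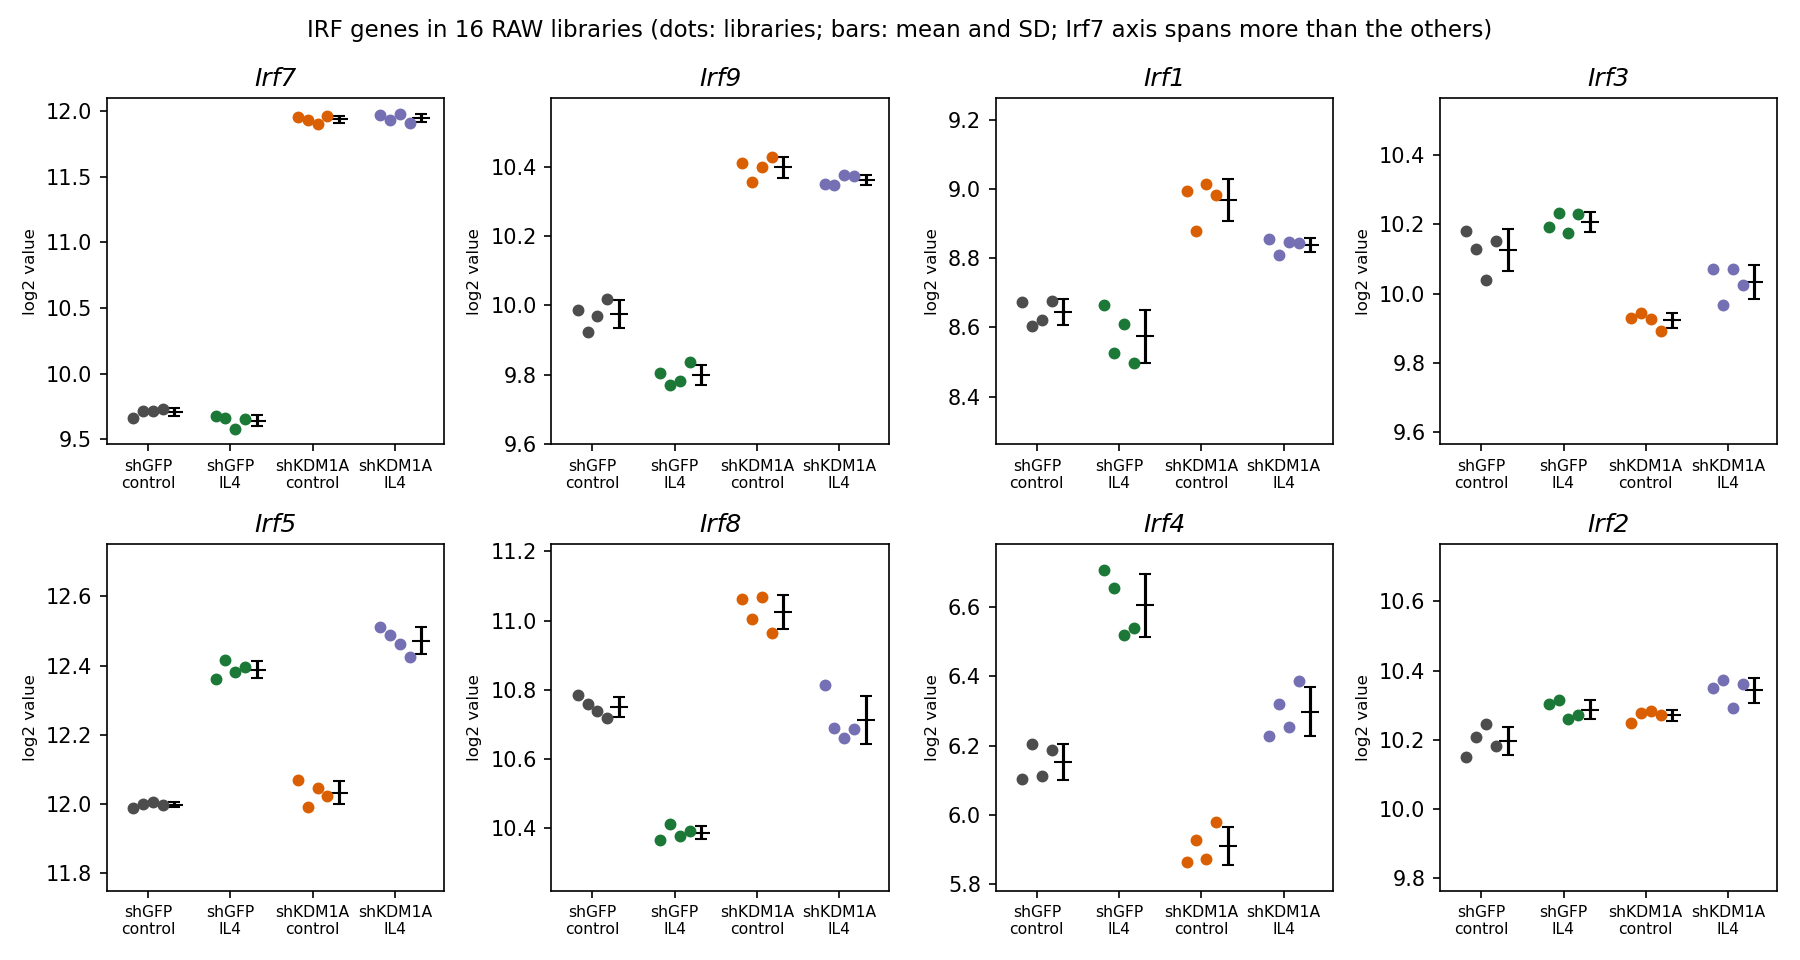
Log2 value (y axis) of each IRF gene in each of 16 RAW libraries (dots), by group (x axis), with the group mean and SD beside them; every panel spans 1 log2 unit except that of Irf7, which spans more. All 8 shKDM1A libraries lie above all 8 shGFP libraries for Irf7, Irf9 and Irf1.

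Irf7 stood at 9.67, 9.72, 9.71 and 9.73 in the shGFP control libraries and at 11.96, 11.93, 11.90 and 11.96 in the shKDM1A control libraries. The gap between the groups was far wider than either group's range. The log2 difference of 2.23 (SE 0.0246, 95% interval 2.18 to 2.28, adjusted p = 1.31e-18) had rank 2 among the 12905 genes from the highest and rank 4 by absolute size. Leaving out any 1 library kept it between 2.22 and 2.24.

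Irf9, the DNA-binding subunit of ISGF3, stood at 9.99, 9.92, 9.97 and 10.02 in shGFP control and at 10.41, 10.36, 10.40 and 10.43 in shKDM1A control libraries. Every shKDM1A library was above every shGFP library, with a log2 difference of 0.42 (SE 0.0228, adjusted p = 3.10e-10) or 1.34-fold. Irf1, an activator induced by interferon gamma, stood at 8.67, 8.60, 8.62 and 8.68 against 8.99, 8.88, 9.01 and 8.98. It was likewise higher without overlap, by 0.32 (SE 0.0357, adjusted p = 1.92e-06).

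Irf8, a factor needed for the monocyte lineage, stood at 10.78, 10.76, 10.74 and 10.72 in shGFP control and at 11.06, 11.00, 11.07 and 10.96 in shKDM1A control libraries. It was higher by 0.27 (SE 0.0312, adjusted p = 2.82e-06). Its close relative Irf4 went the other way, from 6.10, 6.21, 6.11 and 6.19 to 5.86, 5.93, 5.87 and 5.98. Irf4, the least abundant member, had the most negative difference of the 8, -0.24 (SE 0.0448, adjusted p = 0.000426).

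Irf3, the constitutive partner of IRF7 in interferon induction, stood at 10.18, 10.13, 10.04 and 10.15 in shGFP control and at 9.93, 9.94, 9.93 and 9.89 in shKDM1A control libraries, a difference of -0.20 (SE 0.0298, adjusted p = 4.60e-05). Irf3 and Irf7, both able to switch on interferon genes, were therefore called in opposite directions. Irf2, an antagonist of IRF1 at shared sites, was higher by 0.074 (SE 0.0234, adjusted p = 0.0201). That call was lost with quantile normalization (adjusted p = 0.122) and when shGFP control replicate 1 was left out (0.0729), shGFP control replicate 4 (0.0506) or shKDM1A control replicate 3 (0.0508). Irf5 differed by 0.034 (95% interval -0.013 to 0.080, adjusted p = 0.254) and was not called.

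**Figure D3:**
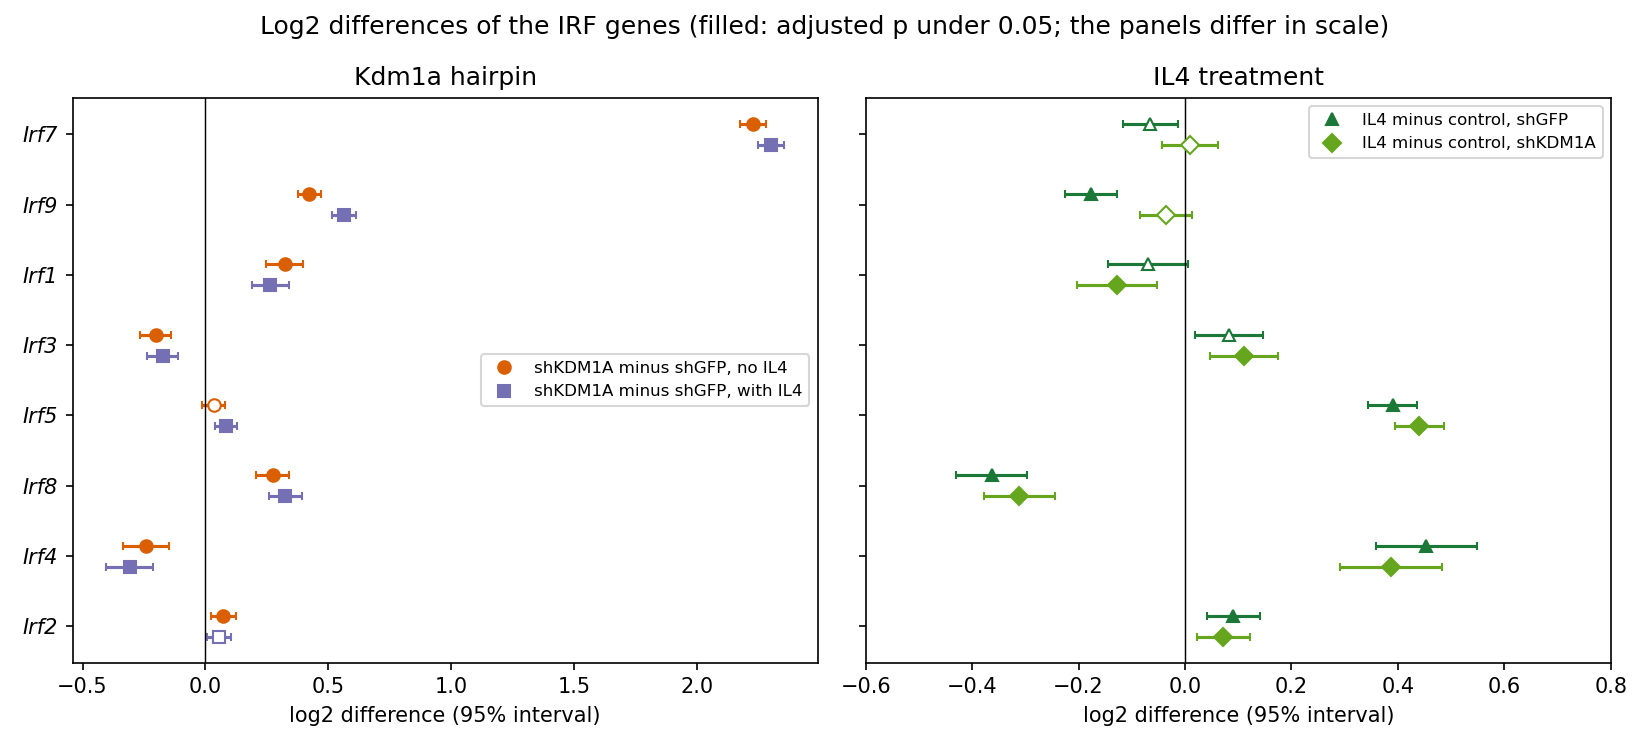
Log2 difference with its 95% interval (x axis) of the 8 IRF genes (y axis) for the Kdm1a hairpin without and with IL4 (left) and for IL4 in shGFP and in shKDM1A cells (right); filled markers passed an adjusted p of 0.05, and the panels differ in scale. Irf7 lies beyond 2 on the left and near 0 on the right, and Irf4 and Irf8 lie on opposite sides of 0 in both panels.

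The same comparison in IL4-treated cells gave 7 of 8 members called, 5 higher and 2 lower, where 40.7% of all genes were called (20.9% higher and 19.8% lower). The 7 members called here did not overlap between groups, as did 36.4% of all genes. The median over the members was again 0.17, against -0.0024 over all genes. With a difference over 0.5 also required, Irf7 and Irf9 were left, where 2.47% of all genes were. Its group means came from libraries other than those of the comparison without IL4, but both took their spread from all 16 libraries.

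Irf7 stood at 9.68, 9.66, 9.58 and 9.65 in shGFP IL4 and at 11.97, 11.93, 11.98 and 11.90 in shKDM1A IL4 libraries. Its difference of 2.30 (SE 0.0246, 95% interval 2.25 to 2.36, adjusted p = 4.51e-19), 4.93-fold, was the second largest of all tested genes. Irf9 stood at 9.81, 9.77, 9.78 and 9.84 against 10.35, 10.35, 10.38 and 10.37, a difference of 0.56 (SE 0.0228, adjusted p = 8.58e-12). Both genes were high in every shKDM1A library and low in every shGFP library, with or without IL4.

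Irf8 was higher by 0.33 (SE 0.0312, adjusted p = 3.80e-07) and Irf1 by 0.26 (SE 0.0357, adjusted p = 1.78e-05) in shKDM1A IL4 cells. Irf4 was lower, at -0.31 (SE 0.0448, adjusted p = 3.95e-05), as was Irf3, at -0.17 (SE 0.0298, adjusted p = 0.000195). These 4 genes kept the direction they had without IL4. Irf5 was higher by 0.084 (SE 0.0219, adjusted p = 0.00601), a call that was lost with quantile normalization (adjusted p = 0.140), and Irf2 differed by 0.055 (95% interval 0.0058 to 0.105, adjusted p = 0.0705) and was not called. Irf2 did pass with median centring (adjusted p = 0.0273) and without shKDM1A IL4 replicate 3 (0.0233).

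The next question was how IL4 itself moved the family. In shGFP cells Irf4 and Irf5 rose, Irf8 and Irf9 fell, Irf2 rose slightly, and Irf7, Irf1 and Irf3 did not pass the test. In all, 5 of 8 members were called, 3 higher and 2 lower, where 26.9% of all genes were called (13.1% higher and 13.7% lower). The 5 were without overlap between groups, as were 28.3% of all genes, and the median was 0.0089 over the members and -0.00049 over all genes. No member differed by over 0.5, a size that 1.35% of all genes passed. This comparison shares its control libraries with that of the hairpins without IL4.

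Irf4 rose from 6.10, 6.21, 6.11 and 6.19 in control to 6.71, 6.66, 6.52 and 6.54 in IL4 libraries, by 0.45 (SE 0.0448, adjusted p = 8.94e-07) or 1.37-fold. Irf5 rose from 11.99, 12.00, 12.01 and 12.00 to 12.36, 12.42, 12.38 and 12.40, by 0.39 (SE 0.0219, adjusted p = 7.87e-10). One is the least and the other the most abundant of the 8, and in both every IL4 library was above every control library.

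Irf8 fell from 10.78, 10.76, 10.74 and 10.72 to 10.37, 10.41, 10.38 and 10.39, a log2 difference of -0.36 (SE 0.0312, adjusted p = 1.67e-07). The PU.1 partners Irf4 and Irf8 were thus called in opposite directions. Irf9 fell from 9.99, 9.92, 9.97 and 10.02 to 9.81, 9.77, 9.78 and 9.84, by 0.18 on the log2 scale (SE 0.0228, adjusted p = 1.84e-05), and Irf2 rose by 0.090 (SE 0.0234, adjusted p = 0.00849).

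Irf7 differed by -0.065 (95% interval -0.117 to -0.013, adjusted p = 0.0630), Irf1 by -0.070 (-0.145 to 0.0062, adjusted p = 0.175) and Irf3 by 0.083 (0.019 to 0.146, adjusted p = 0.0511). Groups overlapped for all 3. Each passed the threshold when certain single libraries were left out: Irf7 without shGFP control replicate 1 (adjusted p = 0.0378) or shGFP IL4 replicate 1 (0.0488), Irf1 without shGFP IL4 replicate 1 (0.0453), and Irf3 without shGFP control replicate 1 (0.0269) or shKDM1A IL4 replicate 2 (0.0354).

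In shKDM1A cells IL4 was followed by 6 of 8 members called, 4 higher and 2 lower, where 27.1% of all genes were called (13.6% higher and 13.5% lower). The 6 were without overlap between groups, as were 25.7% of all genes, and the median was 0.041 over the members against -0.0025 over all genes. Again no member differed by over 0.5, where 1.09% of all genes were called at that size. Irf5 rose from 12.07, 11.99, 12.05 and 12.02 to 12.51, 12.49, 12.46 and 12.42, by 0.44 (SE 0.0219, adjusted p = 2.15e-10). Irf4 rose from 5.86, 5.93, 5.87 and 5.98 to 6.23, 6.32, 6.25 and 6.39, by 0.39 (SE 0.0448, adjusted p = 6.04e-06). With IL4 the Irf4 level of shKDM1A cells was just above that of shGFP cells without it, with no overlap between these 2 sets of libraries, a difference that was not tested.

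Irf8 fell from 11.06, 11.00, 11.07 and 10.96 to 10.81, 10.69, 10.66 and 10.69, a difference of -0.31 (SE 0.0312, adjusted p = 1.18e-06). Irf1 was lower, at -0.13 (SE 0.0357, adjusted p = 0.0131) and Irf3 higher by 0.11 (SE 0.0298, adjusted p = 0.0106). Irf2 was higher by 0.072 (SE 0.0234, adjusted p = 0.0303), which did not hold with trended prior variance (adjusted p = 0.0661), without the filter on low values (0.0501) or when any of 6 libraries was left out (shKDM1A control replicate 1, 2 or 4, shKDM1A IL4 replicate 1, 2 or 4), with adjusted p up to 0.0818. Irf7 differed by 0.0091 (95% interval -0.043 to 0.061, adjusted p = 0.844) and Irf9 by -0.036 (-0.084 to 0.013, adjusted p = 0.286), and neither was called.

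Whether the IL4 response differed between the hairpins was tested by the difference of the 2 responses. Irf9 was the 1 member called of 8, where 6.13% of all genes were called (3.56% higher and 2.57% lower): its response was -0.18 in shGFP and -0.036 in shKDM1A cells, a difference of 0.14 (SE 0.0323, 95% interval 0.072 to 0.209, adjusted p = 0.0182). It remained under the threshold with each library left out, at an adjusted p of at most 0.0404. At a difference over 0.5 no member was called, where 0.132% of all genes were. For the other members the intervals of the difference were -0.20 to 0.068 for Irf4, -0.042 to 0.146 for Irf8, -0.016 to 0.116 for Irf5, -0.165 to 0.049 for Irf1, -0.062 to 0.118 for Irf3, -0.089 to 0.052 for Irf2 and 0.00022 to 0.148 for Irf7. The adjusted p of Irf7 was 0.220. A different response of these genes was therefore not shown, nor was an equal one.

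The genes around the IRFs were described by lists of their known roles, which were chosen with earlier results of these data in view. Their counts are read against the share of all genes called: 38.2% for the hairpin without IL4 (19.7% higher, 18.4% lower), 40.7% with IL4 (20.9% higher, 19.8% lower), 26.9% for IL4 in shGFP cells (13.1% higher, 13.7% lower), 27.1% in shKDM1A cells (13.6% higher, 13.5% lower) and 6.13% for the difference of responses. Upstream of the IRFs, 17 of 17 sensors, adaptors and kinases passed the filter. In shKDM1A control cells 6 were higher and 6 lower than in shGFP cells, with a median of 0.014 that had no stable sign: it ranged from -0.016 without shKDM1A control replicate 2 to 0.034 without shGFP control replicate 4, and was also under 0 without shGFP control replicate 1 or 3 or shKDM1A control replicate 1. With IL4 4 were higher and 7 lower, with a median of -0.034. The 7 lower became 4 without shKDM1A IL4 replicate 1 and 4 with no filter on low values. Cytosolic RNA sensors were the highest in both: Ifih1 (MDA5) was higher by 1.04 (SE 0.0475, adjusted p = 3.78e-11) without IL4 and by 1.13 with it, and Ddx58 (RIG-I) by 0.94 and 1.17. Next in size were Tlr3, the endosomal sensor of double-stranded RNA, at 0.43 without IL4, and Cgas, the DNA sensor, at 0.36 with it. Tlr7, an endosomal sensor of single-stranded RNA, was the lowest in both, at -0.36 without IL4 and -0.33 with it. The lower genes next in size were Myd88, the adaptor of most Toll-like receptors, at -0.21 without IL4 and Tlr9, a sensor of unmethylated DNA, at -0.20 with it.

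**Figure D4:**
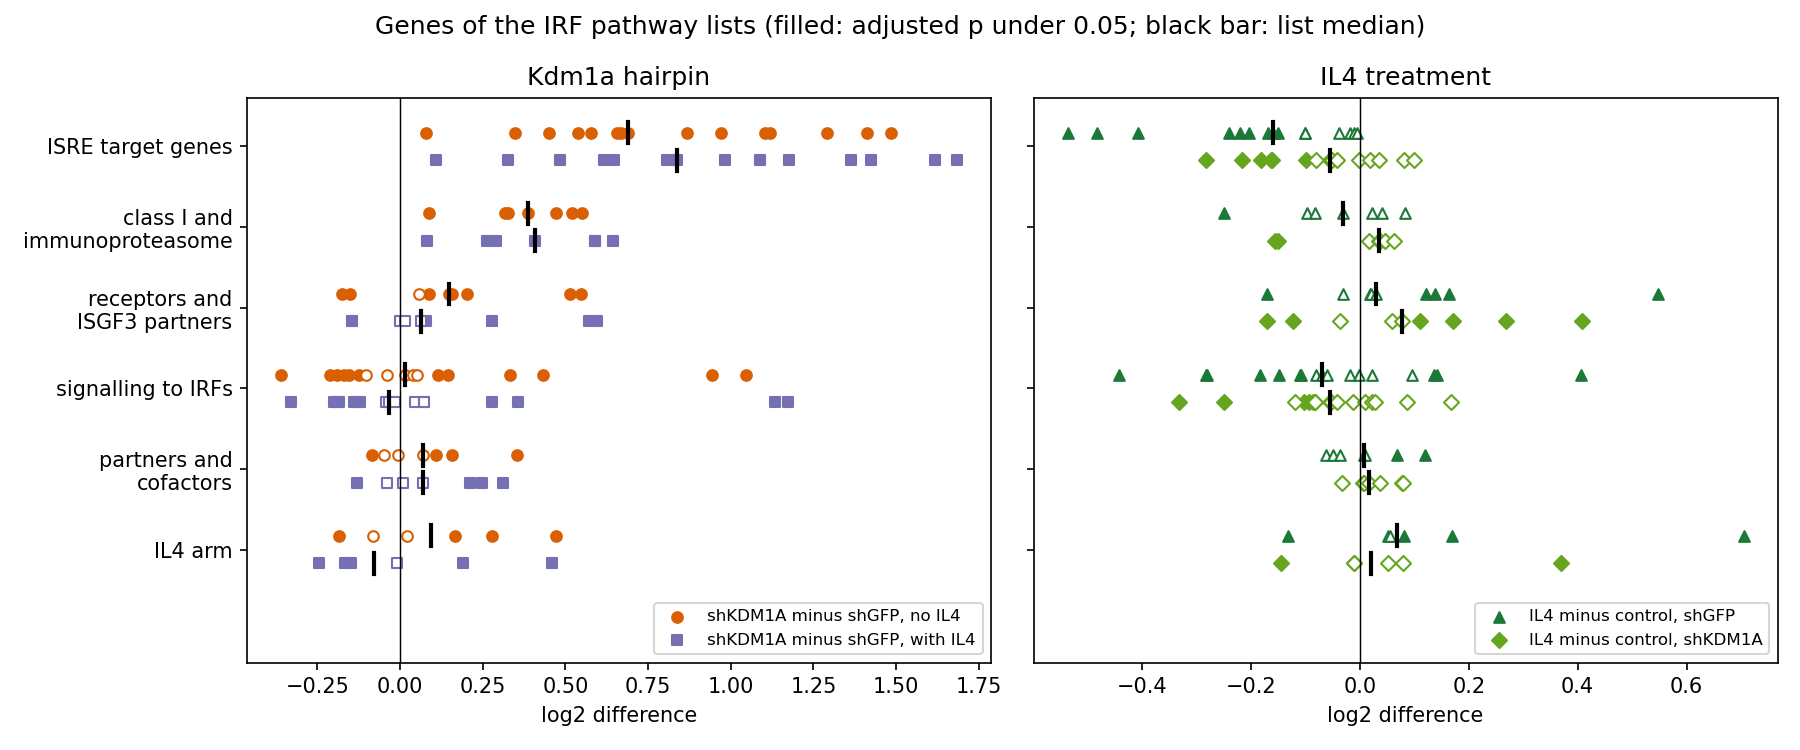
Log2 difference (x axis) of each tested gene of 6 lists around the IRFs (y axis), for the Kdm1a hairpin without and with IL4 (left) and for IL4 in shGFP and in shKDM1A cells (right); filled markers passed an adjusted p of 0.05 and black bars are list medians. All 15 ISRE target genes lie right of 0 in both hairpin comparisons, with medians of 0.69 and 0.84.

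With IL4 the same upstream list had 3 genes higher and 7 lower in shGFP cells and 0 higher and 5 lower in shKDM1A cells, with medians of -0.069 and -0.055. Taken in both directions, the count in shKDM1A cells lay near the 27.1% of all genes called. By direction it did not, as all 5 were lower, where 13.5% of all genes were called lower and 13.6% higher. Over the settings that set no minimum difference, the count in shKDM1A cells moved between 0 and 2 higher and between 2 and 6 lower. It had 2 lower when low values were not filtered. It included 1 higher gene without shGFP control replicate 1, shKDM1A control replicate 4 or replicate 1 or 2 of either IL4 group. Ikbke, a kinase of IRF3 and IRF7, was lower, at -0.44 (SE 0.0408, adjusted p = 3.90e-07) in shGFP and at -0.33 in shKDM1A cells. In shGFP cells Tlr9 rose by 0.41 and Ddx58 was lower, at -0.28. In shKDM1A cells Tlr7 was lower, at -0.25 and Tbk1, the other IRF3 kinase, at -0.10.

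Of 9 interferon receptor chains, their kinases and STATs, 6 were higher and 2 lower with the Kdm1a hairpin without IL4, and 4 were higher and 2 lower with IL4, so for lower calls the list lay near the share over all genes in both. Stat2, which works with IRF9 in ISGF3, had the largest difference: 0.55 (SE 0.0278, adjusted p = 1.52e-10) without IL4 and 0.60 with it. Stat2 and Irf9 were thus both higher in shKDM1A cells in either condition. With IL4, 4 genes of the list were higher and 1 lower in shGFP cells and 4 were higher and 2 lower in shKDM1A cells, led by Jak2 at 0.55 and 0.41. Stat2 was lower after IL4 in both, at -0.17 (adjusted p = 0.000198) in shGFP cells, where Irf9 was also called lower, and at -0.12 in shKDM1A cells, where Irf9 was not called (-0.036, adjusted p = 0.286).

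The 15 ISRE target genes were Isg15, Ifit1, Ifit2, Ifit3, Rsad2, Usp18, Oasl1, Oasl2, Oas1a, Mx1, Mx2, Cxcl10, Ifi44, Rtp4 and Xaf1, all textbook interferon-induced genes. All 15 were higher in shKDM1A than in shGFP cells without IL4, from 0.080 to 1.48 with a median of 0.69, and all 15 were higher with IL4, from 0.11 to 1.68 with a median of 0.84. Without IL4 the count was 14 of 15 in 6 of the other fits, in which Mx1 was not called, and none of the 15 was called lower in any of the 24 fits of either comparison. Ifi44 had the largest difference, from 10.58 to 10.62 in shGFP control to 12.07 to 12.10 in shKDM1A control libraries, 1.48 (SE 0.0345, adjusted p = 1.30e-14). Oasl2, a relative of the oligoadenylate synthetases, was higher by 1.41 and Usp18, which curbs interferon receptor signalling, by 1.29.

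After IL4, 9 of the 15 ISRE target genes were lower and 0 higher in shGFP cells (median -0.16), and 6 were lower and 0 higher in shKDM1A cells (median -0.054), with 1 higher without shGFP IL4 replicate 1 or 3 and when only the groups compared were fitted. That median was -0.083 without shKDM1A IL4 replicate 1 and -0.084 without replicate 3. The leading genes in shGFP cells were Rtp4 at -0.54 (SE 0.0370, adjusted p = 1.06e-08), Ifi44 at -0.48 and Usp18 at -0.41. In shKDM1A cells they were Ifi44 at -0.28, Rtp4 at -0.22 and Rsad2, the antiviral protein viperin, at -0.18. The response itself differed between the hairpins for 4 of the 15, all with the higher value in shKDM1A cells, with Usp18 at 0.33 (SE 0.0440, adjusted p = 0.000393), Rtp4 at 0.32 and Cxcl10, a T cell chemokine, at 0.30 as the largest. This count fell to 2 without shGFP IL4 replicate 2, without shGFP control replicate 4 and with no filter on low values.

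A second group of IRF targets, 6 genes of the immunoproteasome and class I antigen presentation together with Gbp2, an interferon-induced GTPase of neither kind, was higher with the Kdm1a hairpin in 7 of 7 cases without IL4 (median 0.39) and in 7 of 7 with it (median 0.41). B2m, the light chain of class I molecules, was higher by 0.55 and 0.64, Tap1, a subunit of the peptide transporter, by 0.52 and 0.59, and Psmb8, an immunoproteasome subunit, by 0.47 and 0.59. Gbp2, named after its values were seen, was higher by 0.086 and 0.081. After IL4 B2m was lower, at -0.25, in shGFP cells, and B2m and Nlrc5, the class I transactivator, were lower, at -0.16 and -0.15, in shKDM1A cells. The 2 of 7 called in shKDM1A cells, both lower, are near the share over all genes taken in both directions. They became 1 in 8 other settings, among them the 5 that left out shKDM1A IL4 replicate 1 or 3 or shKDM1A control replicate 2, 3 or 4. The 1 called in shGFP cells became 2 without shGFP IL4 replicate 4, without shGFP control replicate 3 and when only the groups compared were fitted.

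The 3 interferon genes looked up were under the filter, and other interferon genes were not examined. Ifnb1 lay between -0.20 and -0.18 on the log2 scale in all 16 libraries, and Ifna2 and Ifna4 are listed at 0 in all 16. None of the 3 passed the filter, so no difference in them was detectable in these values.

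Of 9 partners of the IRFs, which are DNA-binding factors and the IRF2-binding cofactors Irf2bp1, Irf2bp2 and Irf2bpl, 7 passed the filter, and Spib and Batf did not. With the Kdm1a hairpin 3 were higher and 1 lower in either condition, the 1 lower (of 7) near the share over all genes. Without IL4 the 1 lower became 0 without shGFP control replicate 4, without shKDM1A control replicate 1 and with no filter on low values, and with IL4 it became 2 without shKDM1A IL4 replicate 2 and with trended prior variance. Irf2bpl, a relative of the IRF2-binding corepressors, was higher by 0.35 and 0.31, Irf2bp2 by 0.16 and 0.21, and Spi1, which encodes PU.1, by 0.11 and 0.25. After IL4, Ikzf1 (0.12) and Batf3 (0.069) were called higher in shGFP cells. Taken in both directions this lay near the share over all genes, and 4 genes were called without shGFP control replicate 3. In shKDM1A cells 0 were called, and 1 or 2 under 8 other settings: median centring, trended prior variance, the replicate block, and without shGFP control replicate 3, shKDM1A control replicate 3 or shKDM1A IL4 replicate 1, 2 or 4.

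Among 6 genes of the IL4 receptor arm, Socs1, a feedback inhibitor of JAK signalling, rose most with IL4, by 0.70 (SE 0.0526, adjusted p = 3.03e-08) in shGFP and by 0.37 in shKDM1A cells, and this response differed by -0.33 (adjusted p = 0.0149), a call that was lost with no filter on low values. In shGFP cells 3 genes were higher and 1 lower, and in shKDM1A cells 1 was higher and 1 lower, near the share over all genes. Il2rg, the common gamma chain, was lower after IL4, at -0.13 and -0.14, and higher with the Kdm1a hairpin, by 0.47 without IL4 and by 0.46 with it. With the hairpin 3 of the 6 were higher and 1 lower without IL4, and 2 were higher and 3 lower with it. The 1 lower became 2 without shGFP IL4 replicate 4, shGFP control replicate 3 or shKDM1A IL4 replicate 2 or 4, and also with the replicate block, with quantile normalization and when only the groups compared were fitted.

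For the 3 members whose group means ranged most widely, the genes with the nearest pattern were found among the 12905 by the root mean square difference of centred log2 values over the 16 libraries. For Irf7, whose means spanned 2.30, they were Sdc3, a heparan sulfate proteoglycan (0.241), Pkd1l2 (0.260) and the interferon-induced Ifi44l (0.333). Their differences with the hairpin without IL4 were 1.87, 2.09 and 1.66, smaller than that of Irf7. For Irf4, whose means spanned 0.69, they were Dab2, an endocytic adaptor (0.048), Atf3, a stress-induced repressor (0.062), and Il1rl1, the IL33 receptor (0.077). For Irf8, whose means spanned 0.64, they were Ctsb, the protease cathepsin B (0.050), Evi2a (0.051) and Mid1ip1 (0.055). All 9 were chosen on these same libraries, so the likeness is a description.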

How the data were processed

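RNA-seq libraries of RAW cells were aligned by the authors to mm9 (HISAT2 and Bowtie2 are named in the submitters' processing notes), and tags on exons of both strands were counted with HOMER, 1 row per gene. The deposited table holds a log2 value per library from the authors' differential expression step. The transformation behind it and the tool versions are not given in the sources used here, so folds are on this scale, and whether it compresses changes of low genes was not tested. Columns with the authors' own comparisons, and the table on bone marrow-derived macrophages, which holds only such comparisons (fold changes and p-values), were not used. Decimal commas were read as points.

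All 16 libraries (4 per group) entered 1 model of group means in limma 3.58.1 (R 4.3.3), with moderated tests, two-sided, and Benjamini-Hochberg adjustment over all 12905 genes that passed the filter, per comparison, at a threshold of 0.05. The 5 comparisons share libraries. The fit was tested on simulated data of 12905 genes, with changes set in the shGFP IL4 group. It recovered 83 of 100 changes of 0.2 on the log2 scale and 100 of 100 changes of 0.5. There were 9 false calls among the unchanged genes, and smaller changes were not simulated. The study's methods speak of biological replicates in general, but the labels do not say that libraries of a group came from separate cultures, so p-values measure the spread between these libraries, which may be technical. Tags without molecular identifiers are not independent molecules.

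Levels per length are log2 values less the log2 of the exon length over 1000 bases. Windows of 250 bases were read from NCBIM37 with row starts taken as 1-based. Named genes were the IRF rows, Kdm1a, up to 3 called genes with the largest difference from each list and comparison, and the 3 nearest patterns of 3 members. Outside this rule, genes were named to spell out or account for a list (the ISRE targets, interferon genes, cofactors, cell markers and genes under the filter), and Gbp2, Mx1, Myd88 and the hairpin values of Tlr7 and Tlr9 were chosen after their values were seen. Members and lists were chosen with earlier results of these data known. Values of some genes that the rule or the lists name are not reported here.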

Additional observations from a re-analysis of the deposited data

Results flagged for a closer look

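The IL4 response of Irf9 differed between the hairpins by the test of the difference itself: it was -0.18 in shGFP and -0.036 in shKDM1A cells on the log2 scale, and the difference was 0.141 (SE 0.0323, limma, adjusted p = 0.0182). In no group of 4 libraries did a single library stand apart from the other 3 for any of the 8 genes, by Dixon's test in 32 sets of values.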

How the results depend on the processing

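Requiring an absolute log2 difference over 0.5 as well left 0 members called for IL4 in shGFP cells, 0 for IL4 in shKDM1A cells, 1 (Irf7) for the hairpin without IL4, 2 (Irf7 and Irf9) with IL4 and 0 for the difference of responses. Under every other alternative (no filter on low values, a minimum of 5, only the groups compared, median centring, quantile normalization, trended prior variance and each library left out) these counts stayed within 1.5 times. The IL4 difference of Irf7 in shKDM1A cells, never called, turned sign with quantile normalization (-0.00091) and with 2 libraries left out, over a range of -0.0028 to 0.023. With the replicate number as a block (replicate block), the counts of members called were 5, 6, 7, 7 and 1, as without it; same-numbered libraries did not deviate together (correlations -0.34 to 0.27, median 0.045; 6 of 16 libraries were nearest to one of their own number), so the numbers were not taken as pairs. Members whose calls moved under an alternative other than the size limit were Irf1, Irf2, Irf3, Irf5 and Irf7, each in a comparison where its log2 difference was under 0.1. Precision is limited by 4 libraries a group.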
